A study of Mus musculus with 24 samples.

Results

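The Slc25 genes encode the mitochondrial solute carriers, and they were followed here in mouse heart RNA as every row of the gene table whose symbol begins with Slc25a and a digit. The table held 47 such genes among 23998 rows. Of these, 38 reached a mean of 1 FPKM over the libraries (the fragment count scaled to transcript length and library size) and were tested among 12980 genes. The 9 carriers below that level (Slc25a2, Slc25a18, Slc25a21, Slc25a31, Slc25a41, Slc25a43, Slc25a48, Slc25a53 and Slc25a54) had means of 0.594 FPKM or less, Slc25a54 being listed at 0 in each library, and the lowest tested carrier averaged 4.17 FPKM. The study profiled hearts of CD1 mice that carry a human MYL2 transgene, the gene of the ventricular regulatory myosin light chain. Wild-type transgenic mice carry the normal human allele and mutant transgenic mice the mutated one, so no group lacked a human transgene. Poly(A) RNA was sequenced in 13 libraries of 4 groups. These were 3 of wild-type heart given a control virus (replicates 2, 3 and 4), 3 of untreated mutant heart (9, 10 and 11), 3 of mutant heart given the control virus (1, 2 and 3) and 4 of mutant heart labelled as shRNA-treated (5, 6, 7 and 8).

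The virus was an adeno-associated virus of serotype 9 that expresses the M7.8L shRNA from an H1 promoter and the fluorescent protein Cerulean from an RSV promoter. The control virus lacked that shRNA. Pups were injected 3 days after birth, and the hearts come from animals 4 months old. There was no wild-type group without virus and no wild-type group with the shRNA. One genotype entry is given alike for every library, so wild type and mutant were told apart by sample name, and neither the transgene's promoter nor the number of animals per library is stated in the labels. P-values therefore measure the spread between these libraries. Values in a series below follow the replicate order just given, and FPKM values are aligned, that is, each library was divided by its median offset over genes detected in all libraries. Log2 differences are of log2(aligned FPKM + 1), which understates changes of low genes.

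Mitochondrial carriers are small proteins of the inner mitochondrial membrane that share a repeated, membrane-spanning fold and exchange one metabolite for another. In heart muscle, whose mitochondria fill much of the cell, the family hands ATP out to the myofibrils and ADP and phosphate back in, brings acylcarnitines in for fatty acid oxidation, and moves reducing equivalents through the malate-aspartate shuttle. Other members carry cofactors, nucleotides, amino acids and iron that the matrix enzymes need.

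The shRNA group did not behave as a single group. In it, replicates 5, 6 and 7 lay near or above the wild type for most carriers, while replicate 8 lay with the mutants that had no shRNA, and the counts of carriers are therefore given with and without replicate 8, with the names of the carriers whose call it changes. Replicate 8 was thus singled out by the carrier values themselves. Leaving it out tends to enlarge shRNA differences and lower their p-values by that choice, so those p-values are descriptive. In comparisons that do not include the shRNA group, its removal leaves the differences unchanged and narrows the shared spread. The Y-linked gene Ddx3y was above 5 FPKM in 2 of 3 wild-type, 2 of 3 untreated, 0 of 3 control-virus and 3 of 4 shRNA libraries, and the shRNA library without it was replicate 8. Cell marker levels differed between the groups as well. The summed fibroblast markers (Col1a1, Col1a2, Pdgfra, Dcn, Lum) were 827 to 1086 FPKM in wild type, 2155 to 2406 in the 6 mutants without shRNA, 883 to 1085 in shRNA replicates 5 to 7 and 2071 in replicate 8. The 6 macrophage markers found summed to 241 to 244, 469 to 789, 169 to 239 and 691 FPKM in the same order. The 3 smooth muscle markers summed to 181 to 312, 505 to 961, 65.9 to 79.8 and 643 FPKM, and the 5 endothelial markers to 381 to 384, 245 to 344, 390.4 to 439 and 363. Most of the smooth muscle sum was Acta2, which averaged 179 FPKM in wild type, 644 in untreated and 852 in control-virus mutants. The other smooth muscle markers averaged lower in these mutants. Myh11 was 14.8, 6.36 and 7.55 FPKM in the same groups, and Tagln 36.8, 20.5 and 30.5. The cardiomyocyte troponin Tnni3 averaged 9655 FPKM in wild type, 4122 in untreated and 4385 in control-virus mutants, 13537 in replicates 5 to 7 and 4523 in replicate 8, the largest mutant difference from wild type among the cardiomyocyte markers with a value above 0 in every library. A second cardiomyocyte troponin, Tnnt2, averaged 11222, 7296, 8768, 18103 and 8826 FPKM in the same order. It passed only in the shRNA group against untreated mutants (limma, adjusted p = 0.0188). Actn2 averaged 1458, 1293, 1212, 1604 and 1024 FPKM in the same order, and Ryr2 385, 320.1, 240.4, 317 and 205, and neither of these 2 passed in the 6 comparisons. The cardiomyocyte gene Myh6 is listed at 0 in wild-type replicate 2, untreated 11 and control-virus 3 and was 4162 to 13956 FPKM elsewhere. The 5 skeletal muscle markers were each under 1 FPKM on average. Of the 4 adipocyte markers, Ucp1, of brown fat, was listed at 0 throughout. Cidea averaged 63.4 FPKM in wild type, 52.0 in untreated, 58.3 in control-virus and 54.2 in shRNA mutants. Adipoq and Plin1 averaged under 1 FPKM over the libraries and reached at most 4.89 and 2.61 FPKM in wild type. In bulk tissue, fewer cells of a type and less RNA per cell cannot be told apart, and the part of cell make-up or sex in the carrier differences was not tested beyond the values given here.

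To show the regulatory sequence next to genes that moved differently, the 120 bases before the annotated start are printed for 4 members: Slc25a4 and Slc25a5, paralogs of unlike behaviour, Slc25a29, with the largest difference, and Slc25a34. Among the 36 members with a RefSeq window, only Slc25a34 held the half-site motif of estrogen-related receptors in the 250 bases searched. The stretches come from RefSeq (GRCm38.p6) and are read 5′ to 3′ on the gene's strand, from chr8:46211063-46211182 (minus), chrX:36795477-36795596 (plus), chr12:108835877-108835996 (minus) and chr4:141623835-141623954 (minus). Capitals mark the CCAAT box, written CCAAT or ATTGG by strand, and in Slc25a34 also TGACCTT, the reverse complement of that motif, AAGGTCA.
Slc25a4: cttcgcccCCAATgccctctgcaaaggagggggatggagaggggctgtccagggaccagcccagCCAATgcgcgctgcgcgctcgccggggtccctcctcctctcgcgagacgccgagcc
Slc25a5: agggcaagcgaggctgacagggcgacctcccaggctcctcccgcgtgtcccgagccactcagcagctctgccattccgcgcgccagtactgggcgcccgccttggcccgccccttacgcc
Slc25a29: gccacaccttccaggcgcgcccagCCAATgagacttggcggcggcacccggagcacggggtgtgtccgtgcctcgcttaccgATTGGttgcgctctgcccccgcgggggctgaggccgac
Slc25a34: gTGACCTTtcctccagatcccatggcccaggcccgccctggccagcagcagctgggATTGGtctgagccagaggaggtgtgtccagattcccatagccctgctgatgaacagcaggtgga

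Slc25a4 and Slc25a29 hold 2 CCAAT boxes each in these 120 bases, Slc25a34 holds 1 and Slc25a5 holds none. RefSeq windows matched 36 of the 47 carriers, with 46 windows in all, since a gene can have several starts. In the 250 bases before the start, on either strand, CCAAT was found in 45.7% of member windows and 33.8% of all 32851 windows. The GC box GGGCGG stood in 69.6% of member windows against 32.7% of all, beside a median GC content of 57.4% against 52.4%, and AAGGTCA in 2.17% against 4.08%. Of the other motifs searched, the E-box CACGTG was in 17.4% against 6.02% and the TATA box TATAAA in 4.35% against 12.4%. The NRF1 core GCATGCGC was in 4.35% against 2.26% and the YY1 core AAGATGG in 2.17% against 4.49%. Matches of different motifs may overlap. By call, the CCAAT box was in 4 of the 7 members with a window that were lower in control-virus mutants, in the 1 that was higher and in 11 of 21 that did not pass. These matches are descriptions of letters, and binding was not measured.

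Wild-type levels of the carriers were compared per length, in aligned FPKM. Slc25a4, the heart and muscle ADP/ATP carrier, averaged 10421 ± 585 FPKM (SD, n = 3), followed by the phosphate carrier Slc25a3 at 1622 ± 31.7 and the oxoglutarate carrier Slc25a11 at 713 ± 33.3. The second ADP/ATP carrier, Slc25a5, averaged 654 ± 39.0 FPKM, and its range did not reach that of Slc25a11. Below these came Slc25a20 (238 ± 23.4) and Slc25a12 (206 ± 22.6), whose ranges overlapped. In the wild type, 8 carriers beside Slc25a4 averaged 100 FPKM or more, 19 between 10 and 100, 10 between 1 and 10, and 9 under 1.

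The question put by the first comparison is how mutant and wild-type hearts differ under the same control virus. In the mutants, 12 of 38 carriers were lower and 1 was higher at an adjusted p under 0.05, against 11.7% and 12.6% of all tested genes (24.3% in either direction). The median carrier difference was -0.39 on the log2 scale, against -0.01 over all tested genes. Those that fell included the carriers of acylcarnitine (Slc25a20), basic amino acids (Slc25a29), oxoglutarate and malate (Slc25a11), aspartate and glutamate (Slc25a12), dicarboxylates (Slc25a10), coenzyme A (Slc25a42), S-adenosylmethionine (Slc25a26) and NAD (Slc25a51), along with Slc25a34, Slc25a35 and Slc25a46. The citrate carrier Slc25a1 rose. Replicate 8 of the shRNA group entered this comparison through the shared estimate of the spread, and without it 20 carriers were lower and 3 higher, all 13 calls above among them, against 19.9% and 19.8% of all genes (39.7% in either direction). The 10 added were Slc25a3, Slc25a4, Slc25a13, Slc25a15, Slc25a16, Slc25a22, Slc25a38 and Slc25a40 lower and Slc25a23 and Slc25a25 higher. With Ddx3y status as a covariate 3 passed, Slc25a29 and Slc25a35 lower and Slc25a1 higher, and with replicate 8 also left out 21 passed. Leaving out any one wild-type or control-virus library left 2 to 4, and Slc25a29 and Slc25a35 passed in each of those 6 fits.

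Untreated mutants were compared with the same wild-type libraries, so the comparison shares its reference with the one above and differs from it in that only the wild type had virus. Here 16 carriers were lower and 2 higher, against 13.8% and 12.0% of all genes (25.8% in either direction), with a median of -0.36 against 0.01. The 2 that rose were Slc25a23, a calcium-regulated ATP-Mg/phosphate carrier, and Slc25a36, a pyrimidine nucleotide carrier. Slc25a4 and Slc25a3, which missed the threshold under the control virus, passed here. Without shRNA replicate 8 the counts were 21 lower and 4 higher, against 20.8% and 18.9% (39.8% in either direction), with Slc25a13, Slc25a15, Slc25a16, Slc25a28 and Slc25a51 added lower and Slc25a1 and Slc25a24 higher. The deposited FPKM without alignment, which carry an offset of -0.33 on the log2 scale over all genes, gave 20 lower and 0 higher. Leaving out one untreated library left 10, 4 and 9 carriers (without replicates 9, 10 and 11), and leaving out one wild-type library left 5, 8 and 7 (without 2, 3 and 4).

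The third comparison asks what the shRNA virus changed in mutants relative to the control virus. In the shRNA group 13 carriers were higher and 3 lower, against 11.9% and 12.2% of all genes (24.1% in either direction), with a median of 0.31 against 0.00 over all genes. The 13 included Slc25a3, Slc25a10, Slc25a11, Slc25a12, Slc25a13, Slc25a16, Slc25a20, Slc25a29, Slc25a34, Slc25a35, Slc25a42 and Slc25a51, and the 3 were Slc25a1, Slc25a23 and Slc25a47. Without replicate 8, 21 were higher and 6 lower, against 24.3% and 23.8% (48.1% in either direction). Slc25a4, Slc25a15, Slc25a22, Slc25a26, Slc25a28, Slc25a38, Slc25a40 and Slc25a46 joined the first set and Slc25a5, Slc25a36 and Slc25a45 the second. Without replicate 5, 6 or 7, or without any one control-virus library, 1 to 4 passed, Slc25a29 among them each time. With Ddx3y status as a covariate Slc25a29 alone passed, and with replicate 8 also left out 22 passed. All 3 control-virus libraries lacked Ddx3y and shRNA replicates 5 to 7 had it. In that last fit the covariate therefore rests on the wild-type and untreated libraries. As deposited, where all genes were shifted by 0.47 on the log2 scale, 22 carriers were higher and 0 lower.

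The untreated mutants allow an shRNA contrast between libraries that carry Ddx3y. It sets the shRNA virus against no virus, so the shRNA and the virus cannot be told apart in it. It also leaves out shRNA replicate 8, which lacks Ddx3y. Against untreated replicates 9 and 10, shRNA replicates 5 to 7 were higher without overlap for 25 of 38 carriers and lower for 4, where 31.5% and 32.0% of all genes were so. Untreated replicates 9 and 10 were in turn lower than wild-type replicates 2 and 3 for 25 carriers, against 34.8% of all genes, and higher for 6, which makes 31 in either direction, against 69.8%. In the fit of all libraries, the shRNA group against the untreated mutants gave 17 carriers higher and 2 lower, against 16.0% and 13.1% of all genes (29.1% in either direction). Its median carrier difference was 0.36, against 0.00 over all genes. Without replicate 8 it gave 23 and 2, against 25.3% and 24.1% (49.4% in either direction), with Slc25a22, Slc25a37, Slc25a38, Slc25a40, Slc25a46 and Slc25a51 added. The deposited values, offset by 0.66 on the log2 scale, gave 29 higher and 0 lower. Of single libraries, untreated replicates 9, 10 and 11 and shRNA replicates 5 and 6 moved the count of 19 by more than 1.5 times, to 12, 11, 12, 11 and 10.

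Between the control-virus and untreated mutants, no carrier and no gene passed (0.0% of all genes). By limma, 5 carriers and 1296 genes had an unadjusted p under 0.05, and 0 carriers passed under every alternative run. The smallest adjusted p of a carrier was 0.346, for Slc25a36, which was 1.71-fold lower with the control virus. Between the shRNA group and wild type, 0 carriers passed, against 0.0847% of all genes, with 3 carriers and 1518 genes at an unadjusted p under 0.05. The large spread that replicate 8 gives this group enters that count: without it 5 carriers passed, against 5.62% of all genes, namely Slc25a3, Slc25a11, Slc25a13 and Slc25a34 higher (3.15% of all genes) and Slc25a47 lower (2.47%). A miss of the threshold does not show that the groups were alike.

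**Figure D1:**
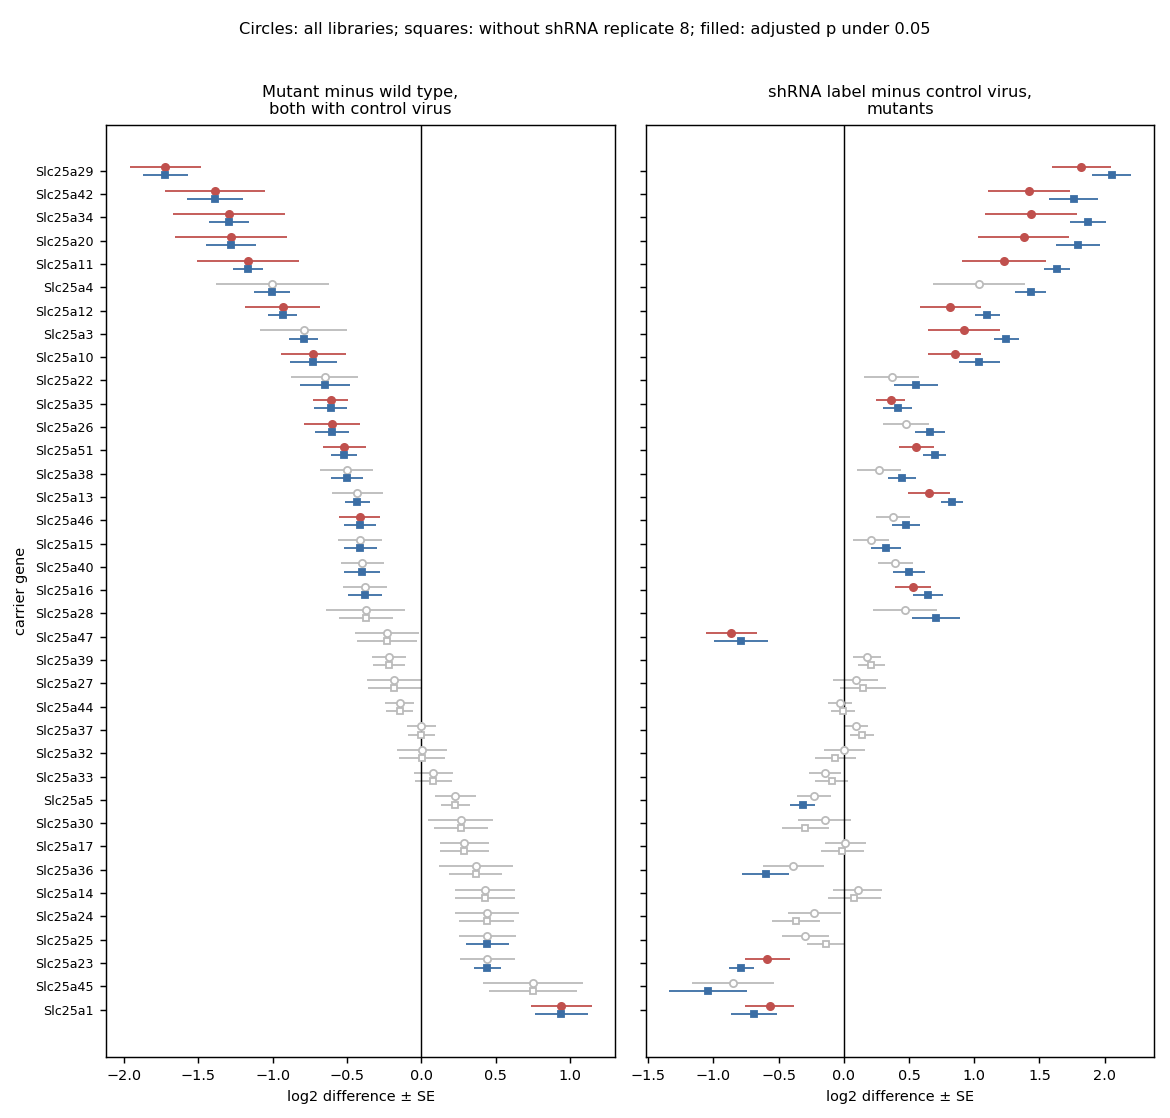
Log2 difference ± SE of 37 of the 38 tested carriers, for mutant minus wild type under the control virus (left) and for shRNA minus control virus in mutants (right). Circles are fits to all 13 libraries, squares fits without shRNA replicate 8, and filled symbols passed an adjusted p of 0.05. Slc25a29 lies farthest from 0 in both panels, at -1.72 and 1.82, and the bars of Slc25a4, among others, shorten without replicate 8.

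By library rather than by test, 20 of the 38 tested carriers were lower in all 6 mutants without shRNA than in all 3 wild-type hearts, and 4 were higher (Slc25a23, Slc25a24, Slc25a36 and Slc25a45), where 20.6% and 19.0% of all tested genes were so. Of the 20, shRNA replicates 5, 6 and 7 lay above the wild-type range for 14, 14 and 12, inside it for 5 each, and inside the mutant range for 0. Replicate 8 lay inside the range of the 6 mutants for 13 of the 20, inside the wild-type range for 1, between the ranges for 5 and below both for 1. The positions of the shRNA libraries were not counted over all tested genes, so they are not shown to be particular to the carriers.

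**Figure D2:**
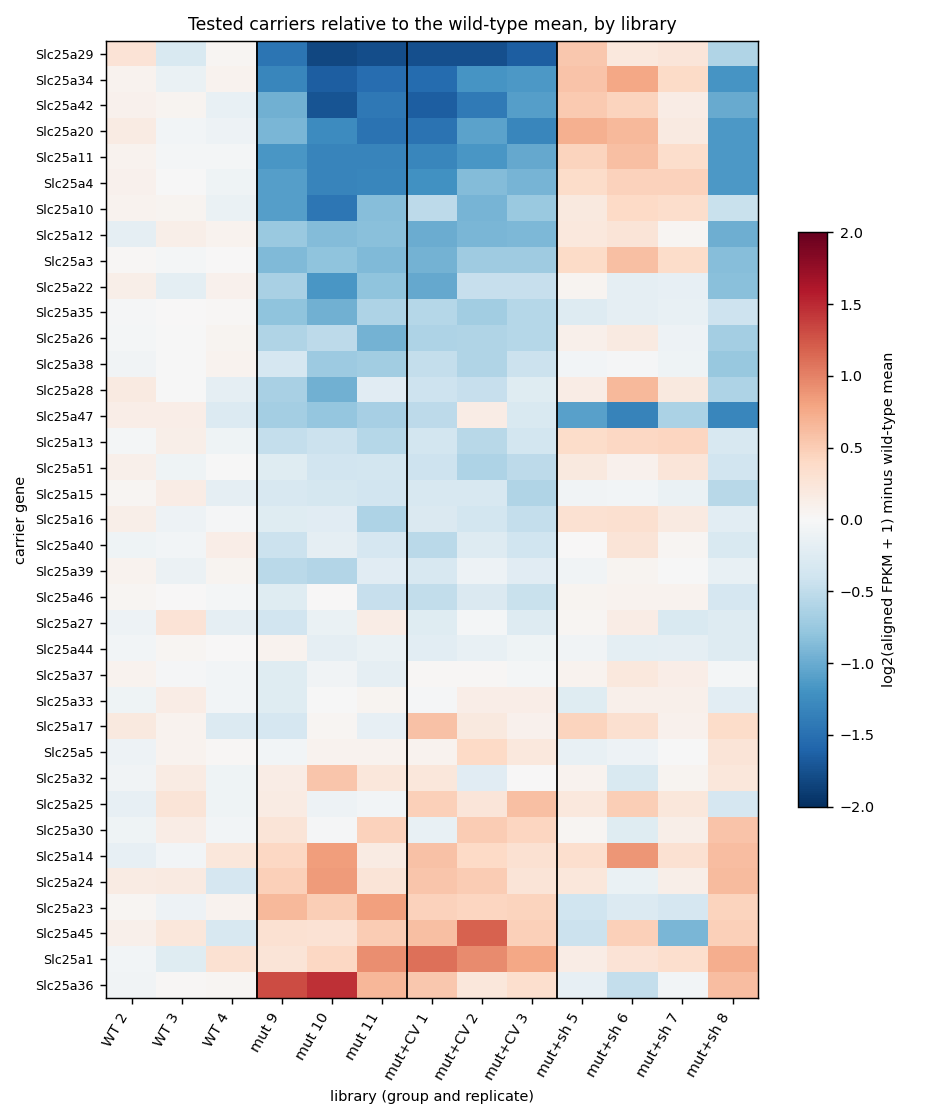
Levels of 37 of the 38 tested carriers (rows, ordered by mean in the 6 mutants without shRNA) in each of 13 libraries (columns), as log2(aligned FPKM + 1) minus the wild-type mean. Colour runs from -2 (blue) to 2 (red), and black lines part the groups. Columns mut 9 to mut+CV 3 and mut+sh 8 are blue for the upper rows, and mut+sh 5 to 7 are pale or red for most of them.

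ADP/ATP exchange and phosphate import feed ATP synthase with its substrates. Slc25a4, the main ADP/ATP carrier of heart, measured 11023, 10386 and 9855 FPKM in the wild type, 4830, 4180 and 4204 in the untreated mutants, 4485, 5690 and 5493 in the control-virus mutants and 13408, 14301, 14365 and 4678 in the shRNA mutants. All 6 mutants without shRNA and shRNA replicate 8 were under every wild-type value, and shRNA replicates 5 to 7 were above every wild-type value. In untreated mutants it was 2.37-fold lower (log2 difference -1.24 ± 0.38 SE, adjusted p = 0.0333). Under the control virus the difference was -1.003 ± 0.38 (SE, adjusted p = 0.0697), which did not pass, and -1.003 ± 0.12 (SE, adjusted p = 4.63e-05) without shRNA replicate 8. The shRNA group differed from the untreated mutants by 1.28 ± 0.35 (SE, adjusted p = 0.0207) and from the control-virus mutants by 1.04 ± 0.35 (SE, adjusted p = 0.0506), the latter 1.43 ± 0.12 (SE, adjusted p = 1.53e-06) without replicate 8. Among libraries without Ddx3y alone, Slc25a4 was 9855 FPKM in the wild-type heart (replicate 4) and 4204 to 5690 in the 4 mutants without shRNA.

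Slc25a5, the X-linked and widely expressed ADP/ATP carrier, measured 609.9, 684 and 667 FPKM in the wild type, 632, 689 and 682 in the untreated mutants, 688, 865 and 752 in the control-virus mutants and 591, 606, 647 and 781 in the shRNA mutants. Every library lay between 591 and 865 FPKM and it passed in none of the 6 comparisons. The difference under the control virus was 0.23 ± 0.14 (SE, adjusted p = 0.234), and for the shRNA group against that virus -0.23 ± 0.13 (SE, adjusted p = 0.202), which without replicate 8 became -0.32 ± 0.10 (SE, adjusted p = 0.0171). The phosphate carrier Slc25a3 measured 1642, 1585 and 1638 FPKM in the wild type, 881, 932 and 877 in the untreated mutants, 839, 993 and 989 in the control-virus mutants and 2122, 2474, 2095 and 902 in the shRNA mutants. No mutant library without shRNA reached the lowest wild-type value, and shRNA replicates 5 to 7 exceeded the highest. Its differences were -0.85 ± 0.29 (SE, adjusted p = 0.0489) in untreated mutants, -0.79 ± 0.29 (SE, adjusted p = 0.0655) under the control virus, which did not pass with replicate 8 in the fit and became -0.79 ± 0.10 (SE, adjusted p = 5.92e-05) without it, and 0.92 ± 0.27 (SE, adjusted p = 0.0328) with the shRNA.

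Within a library the scaling cancels, so the balance of the 2 ADP/ATP carriers was compared directly. Slc25a4 was 14.8 to 18.1 times as abundant as Slc25a5 in wild type, 6.07 to 7.64 times in untreated mutants, 6.52 to 7.30 times in control-virus mutants, 22.2 to 23.6 times in shRNA replicates 5 to 7 and 5.99 times in replicate 8. The log2 ratio of Slc25a5 to Slc25a4 was -2.76 ± 0.09 in control-virus mutants and -3.99 ± 0.16 in wild type (SD, n = 3 each), a difference of 1.23. The exact two-sided permutation p was 0.1, the smallest that 3 against 3 allows, and 0.274 after adjustment over 12 ratio tests. In the shRNA group the ratio averaged -4.03 ± 0.97 (SD, n = 4), with an exact p of 0.229 against the control virus, where 4 against 3 allows 0.0571 at the smallest. Replicates 5 to 7 were below every control-virus ratio, and replicate 8, at -2.58, was above every one. Slc25a4 made up 68.2% to 70.4% of the summed FPKM of all carriers in wild type and 58.4% to 63.4% in mutants without shRNA. It made up 69.8% to 72.6% in shRNA replicates 5 to 7 and 59.9% in replicate 8.

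**Figure D3:**
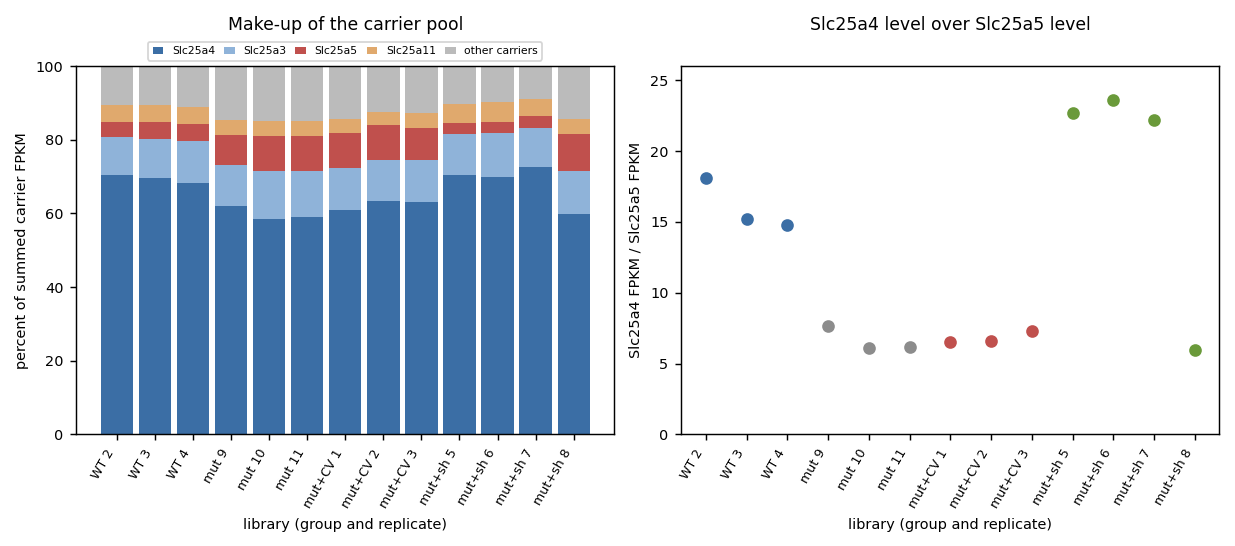
Left, the share of the summed carrier FPKM taken by Slc25a4, Slc25a3, Slc25a5, Slc25a11 and the remaining carriers in each of 13 libraries, in percent. Right, the Slc25a4 level divided by the Slc25a5 level in the same libraries, with 3 wild-type points at 14.8 to 18.1, 7 mutant points (shRNA replicate 8 among them) at 5.99 to 7.64 and shRNA replicates 5 to 7 at 22.2 to 23.6.

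The malate-aspartate shuttle carries cytosolic NADH equivalents into the matrix through 2 carrier steps. Slc25a11, its oxoglutarate/malate exchanger, measured 751, 693 and 693 FPKM in the wild type, 316, 285 and 284 in the untreated mutants, 286, 318 and 350.0 in the control-virus mutants and 970.2, 1087, 909.9 and 321 in the shRNA mutants. All mutants without shRNA and replicate 8 were under the wild type, and shRNA replicates 5 to 7 were above it. It was 2.24-fold lower (log2 difference -1.17 ± 0.35 SE, adjusted p = 0.0317) under the control virus, and with the shRNA 2.35-fold higher (log2 difference 1.23 ± 0.32 SE, adjusted p = 0.0231). Slc25a12, the aspartate/glutamate carrier of excitable tissue, measured 180.2, 223 and 214 FPKM in the wild type, 122, 112 and 115 in the untreated mutants, 103, 108 and 109.9 in the control-virus mutants and 239, 244, 209.6 and 104 in the shRNA mutants. The 6 mutants without shRNA and replicate 8 were all under the wild type, and replicate 7 of the shRNA group lay within the wild-type range. Its differences were -0.93 ± 0.25 (SE, adjusted p = 0.0236) under the control virus and 0.82 ± 0.24 (SE, adjusted p = 0.0296) with the shRNA.

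Slc25a13, the second aspartate/glutamate carrier and the main form of liver, measured 144, 161 and 139 FPKM in the wild type, 106, 109.5 and 99.5 in the untreated mutants, 114, 100.5 and 114 in the control-virus mutants and 190.2, 196, 200.1 and 119 in the shRNA mutants. All mutants without shRNA were under the wild type and shRNA replicates 5 to 7 were above it. The mutant differences, -0.43 ± 0.17 (SE, adjusted p = 0.0829) under the control virus and -0.49 ± 0.17 (SE, adjusted p = 0.0525) untreated, did not pass, and 0.65 ± 0.16 (SE, adjusted p = 0.0206) with the shRNA did. Without shRNA replicate 8, which is in neither mutant group compared, both passed, at -0.43 ± 0.09 (SE, adjusted p = 0.00166) and -0.49 ± 0.09 (SE, adjusted p = 0.000651). The liver RNAs Alb, Apoa1 and Ttr summed to 87.4 FPKM in one wild-type library, replicate 3, which also held the highest wild-type Slc25a13 value. The sum was 4.45 to 15.0 FPKM in shRNA replicates 5 to 7 and 0.592 in replicate 8. In untreated mutants it was 0.835 to 1.14 FPKM and in control-virus mutants 0.763 to 1.11. The part of these liver RNAs in the Slc25a13 values was not tested. Slc25a12 exceeded Slc25a13 by 1.25 to 1.54 times in wild type, and the log2 ratio of Slc25a13 to Slc25a12 was 0.51 higher in control-virus mutants (exact p = 0.1, adjusted 0.274). Of the 4 shuttle enzymes, Got1 was lower under the control virus (adjusted p = 0.0493), the 3 others passed there only without shRNA replicate 8, and Mdh1, Got1 and Got2 were higher with the shRNA.

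Glutamate import was represented by Slc25a22, which measured 40.8, 32.5 and 39.6 FPKM in the wild type, 23.4, 16.2 and 21.0 in the untreated mutants, 17.9, 27.1 and 26.8 in the control-virus mutants and 38.9, 33.0, 33.2 and 20.5 in the shRNA mutants. All 6 mutants without shRNA and replicate 8 lay under the wild type, with a log2 difference of -0.88 ± 0.23 (SE, adjusted p = 0.0203) untreated and of -0.65 ± 0.23 (SE, adjusted p = 0.0541) under the control virus, where it did not pass with shRNA replicate 8 in the fit and became -0.65 ± 0.17 (SE, adjusted p = 0.00914) without it. Its relative Slc25a18 stayed at 1.11 FPKM or less in each library.

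Among di- and tricarboxylate carriers the members parted. The citrate carrier Slc25a1, which exports citrate for lipid synthesis, measured 7.66, 6.61 and 10.1 FPKM in the wild type, 9.84, 11.0 and 16.1 in the untreated mutants, 18.5, 16.4 and 14.5 in the control-virus mutants and 9.05, 9.89, 10.4 and 13.9 in the shRNA mutants. All control-virus mutants were above all wild-type hearts, while the untreated group overlapped them. It was 1.92-fold higher (log2 difference 0.94 ± 0.20 SE, adjusted p = 0.0121) under the control virus and 1.48-fold lower (log2 difference -0.57 ± 0.19 SE, adjusted p = 0.0459) in the shRNA group, with no overlap. The untreated difference, 0.53 ± 0.20 (SE, adjusted p = 0.0685), did not pass, and it was 0.53 ± 0.18 (SE, adjusted p = 0.0309) without shRNA replicate 8. The dicarboxylate carrier Slc25a10 measured 9.99, 9.89 and 8.54 FPKM in the wild type, 3.85, 2.83 and 4.76 in the untreated mutants, 6.30, 4.51 and 5.27 in the control-virus mutants and 11.0, 12.7, 12.3 and 6.68 in the shRNA mutants. It was under the wild type in all mutants without shRNA and in replicate 8, with log2 differences of -0.73 ± 0.22 (SE, adjusted p = 0.0331) under the control virus and -1.14 ± 0.22 (SE, adjusted p = 0.00804) untreated. In the shRNA group it was 1.80-fold higher (log2 difference 0.85 ± 0.20 SE, adjusted p = 0.0193) without overlap, replicate 8 included.

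Acylcarnitine entry runs through Slc25a20, the carnitine/acylcarnitine translocase that delivers long-chain fatty acids to oxidation. It measured 265, 228 and 222 FPKM in the wild type, 126, 99.3 and 84.6 in the untreated mutants, 84.8, 113 and 96.1 in the control-virus mutants and 388, 374, 269.6 and 107 in the shRNA mutants. The lowest wild-type value was above all 6 mutants without shRNA and above replicate 8. Under the control virus it was 2.43-fold lower (log2 difference -1.28 ± 0.38 SE, adjusted p = 0.0307), and the shRNA group was 2.60-fold higher (log2 difference 1.38 ± 0.35 SE, adjusted p = 0.0216). Of the 4 carnitine enzymes measured with it, Cpt1b (outer membrane palmitoyltransferase of muscle), Cpt2 and Crat were lower under the control virus, and Cpt1a, Cpt1b and Cpt2 were higher with the shRNA. Cpt2 averaged 294 FPKM in wild type, 110 in control-virus mutants, 275 in shRNA replicates 5 to 7 and 114 in replicate 8.

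Slc25a29, a carrier of basic amino acids, showed the largest difference of the family. It measured 27.2, 18.1 and 23.0 FPKM in the wild type, 7.52, 5.67 and 5.89 in the untreated mutants, 5.90, 5.95 and 6.48 in the control-virus mutants and 32.9, 26.2, 26.8 and 14.5 in the shRNA mutants. All mutants without shRNA lay well under the wild type. Replicate 8 of the shRNA group stood between those mutants and the wild type, unlike its position for most carriers. Slc25a29 was 3.30-fold lower (log2 difference -1.72 ± 0.24 SE, adjusted p = 0.00518) under the control virus and 3.21-fold lower (log2 difference -1.68 ± 0.24 SE, adjusted p = 0.0027) untreated. The shRNA group was 3.53-fold higher (log2 difference 1.82 ± 0.22 SE, adjusted p = 0.00376) than the control-virus mutants, without overlap. It was the one carrier that passed in every setting run for each of these 3 comparisons, its largest adjusted p being 0.0452.

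Slc25a47, a relative of the carnitine and ornithine branch that is known mainly from liver, was low and behaved differently. It measured 7.57, 7.65 and 5.52 FPKM in the wild type, 3.90, 3.58 and 3.94 in the untreated mutants, 4.44, 7.65 and 5.34 in the control-virus mutants and 2.68, 2.12, 4.04 and 2.17 in the shRNA mutants. The shRNA group, replicate 8 included, was below all control-virus and all wild-type values, and replicate 8 lay within the range of replicates 5 to 7. The untreated mutants, at 3.58 to 3.94 FPKM, lay inside the shRNA range, and Slc25a47 was 1.63-fold lower (log2 difference -0.71 ± 0.21 SE, adjusted p = 0.0319) in them than in wild type. The shRNA group was 1.82-fold lower (log2 difference -0.86 ± 0.20 SE, adjusted p = 0.0177) against the control virus, and against wild type the difference of -1.09 ± 0.20 (SE, adjusted p = 0.0597) did not pass, becoming -1.02 ± 0.20 (SE, adjusted p = 0.0141) without replicate 8. In the remaining tested members of the branch, Slc25a15 (ornithine) ran from 8.59 to 15.0 FPKM and Slc25a45 from 1.44 to 9.32, and neither passed in a fit of all libraries. Slc25a15 was nevertheless under the wild type in all 6 mutants without shRNA. Slc25a44 (branched-chain amino acids, 19.2 to 24.4 FPKM) passed in none, and Slc25a38 (glycine for heme synthesis, 27.1 to 49.0 FPKM) was lower in untreated mutants (log2 difference -0.59 ± 0.18 (SE, adjusted p = 0.0333)).

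Of 9 tested carriers of cofactors and nucleotides, 4 were lower under the control virus and 4 higher with the shRNA, against 11.7% and 11.9% of all genes. Slc25a42, which imports coenzyme A, measured 71.2, 69.7 and 60.0 FPKM in the wild type, 33.6, 19.4 and 24.3 in the untreated mutants, 20.5, 24.3 and 30.7 in the control-virus mutants and 96.8, 91.3, 74.0 and 32.7 in the shRNA mutants. Its mutant values without shRNA were at most 33.6 FPKM, and replicate 8 was close to that. It was 2.62-fold lower (log2 difference -1.39 ± 0.34 SE, adjusted p = 0.0171) under the control virus and 2.67-fold higher (log2 difference 1.42 ± 0.31 SE, adjusted p = 0.0159) with the shRNA. The NAD carrier Slc25a51 measured 57.1, 50.2 and 52.7 FPKM in the wild type, 44.7, 40.6 and 41.1 in the untreated mutants, 39.7, 34.5 and 36.6 in the control-virus mutants and 61.3, 56.8, 63.0 and 40.7 in the shRNA mutants. Its log2 difference was -0.52 ± 0.14 (SE, adjusted p = 0.026) under the control virus and 0.56 ± 0.14 (SE, adjusted p = 0.02) with the shRNA, replicate 8 lying just above the control-virus range and inside the untreated one.

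Slc25a36, a pyrimidine nucleotide carrier, was the one member of this group that rose in a mutant group against wild type. It measured 30.2, 32.4 and 32.8 FPKM in the wild type, 80.2, 89.1 and 51.2 in the untreated mutants, 46.5, 37.5 and 40.4 in the control-virus mutants and 28.4, 22.5, 30.5 and 49.4 in the shRNA mutants. All 6 mutants without shRNA and replicate 8 were above the wild type, with the untreated group highest. It was 2.21-fold higher (log2 difference 1.14 ± 0.25 SE, adjusted p = 0.0121) untreated, while the control-virus difference of 0.37 ± 0.25 (SE, adjusted p = 0.284) did not pass. The shRNA group was 2.24-fold lower (log2 difference -1.16 ± 0.23 SE, adjusted p = 0.00667) than the untreated mutants. Its paralog Slc25a33 ran from 19.7 to 26.3 FPKM over all libraries and passed in none. Slc25a16 (coenzyme A) was higher with the shRNA (log2 difference 0.53 ± 0.14 (SE, adjusted p = 0.0234)) and Slc25a26 (S-adenosylmethionine) lower under the control virus (-0.60 ± 0.19 (SE, adjusted p = 0.0388)). Slc25a32 (folate or FAD, 8.02 to 15.5 FPKM) passed in none, and the peroxisomal Slc25a17 (11.3 to 22.5 FPKM) passed only in the shRNA group against untreated mutants (0.46 ± 0.16 (SE, adjusted p = 0.0442)).

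The calcium-regulated ATP-Mg/phosphate carriers adjust the adenine nucleotide pool of the matrix. Slc25a23 measured 51.6, 46.6 and 52.5 FPKM in the wild type, 78.9, 70.9 and 89.2 in the untreated mutants, 69.4, 68.0 and 68.6 in the control-virus mutants and 37.9, 41.1, 39.4 and 68.8 in the shRNA mutants. All 6 mutants without shRNA and replicate 8 were above the wild type, and shRNA replicates 5 to 7 were below it, the mirror image of Slc25a4. It was 1.57-fold higher (log2 difference 0.65 ± 0.19 SE, adjusted p = 0.0271) untreated, 0.44 ± 0.19 (SE, adjusted p = 0.0932) under the control virus, which did not pass but became 0.44 ± 0.09 (SE, adjusted p = 0.00234) without shRNA replicate 8, and 1.50-fold lower (log2 difference -0.59 ± 0.17 SE, adjusted p = 0.0321) in the shRNA group. Slc25a24 (3.92 to 10.2 FPKM) and Slc25a25 (7.60 to 15.5 FPKM) passed in none of the fits of all libraries. Slc25a41 was at most 0.712 FPKM.

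Of the iron and glutathione carriers, none of the 4 passed under the control virus or with the shRNA against it in the fits of all libraries. Without shRNA replicate 8, Slc25a40 was lower under the control virus, and Slc25a28 and Slc25a40 were higher with the shRNA. Slc25a39, a glutathione carrier at 117 to 185 FPKM, was lower in untreated mutants (-0.45 ± 0.12 (SE, adjusted p = 0.0206)), and both it and the iron carrier Slc25a28 were higher in the shRNA group than in untreated mutants. The iron carrier of red cell precursors, Slc25a37, ran from 10.3 to 14.5 FPKM and Slc25a40 from 7.15 to 13.1. Red cell markers varied from 666 to 6087 FPKM between libraries. The 3 uncoupling-protein-like members, Slc25a14, Slc25a27 and Slc25a30, passed in no comparison. Of the uncoupling proteins proper, which belong to the same family under other symbols, Ucp1 was listed at 0 in each library, and Ucp3, the muscle form, averaged 36.3 FPKM in wild type and 11.1 in control-virus mutants (log2 difference -1.72, adjusted p = 0.0475). Ucp2 averaged 37.4 FPKM in wild type and 58.5 in control-virus mutants (log2 difference 0.62, adjusted p = 0.0639), which passed only without shRNA replicate 8, and it was lower with the shRNA (log2 difference -0.83, adjusted p = 0.0215).

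Slc25a34 and Slc25a35 are paralogs whose substrate is not assigned here. Slc25a34, with a wild-type mean of 173 FPKM, measured 181, 156 and 181 FPKM in the wild type, 69.5, 54.3 and 59.4 in the untreated mutants, 58.4, 75.6 and 77.0 in the control-virus mutants and 257, 296, 226 and 76.0 in the shRNA mutants. Mutants without shRNA and replicate 8 reached at most 77.0 FPKM, and shRNA replicates 5 to 7 were above the wild type. It was 2.45-fold lower (log2 difference -1.29 ± 0.38 SE, adjusted p = 0.0306) under the control virus and 2.70-fold higher (log2 difference 1.43 ± 0.35 SE, adjusted p = 0.0207) with the shRNA. Slc25a35 measured 9.69, 9.87 and 10.0 FPKM in the wild type, 5.20, 4.59 and 6.11 in the untreated mutants, 6.32, 5.68 and 6.34 in the control-virus mutants and 8.06, 8.55, 8.79 and 7.14 in the shRNA mutants. The 6 mutants without shRNA were all lower, and the 4 shRNA values lay between. It was 1.53-fold lower (log2 difference -0.61 ± 0.12 SE, adjusted p = 0.00908) under the control virus and 1.28-fold higher (log2 difference 0.36 ± 0.11 SE, adjusted p = 0.0371) with the shRNA. Slc25a46, a carrier-family protein of the outer membrane, ran from 37.2 to 55.8 FPKM and was lower under the control virus (-0.41 ± 0.14 (SE, adjusted p = 0.0474)).

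**Figure D4:**
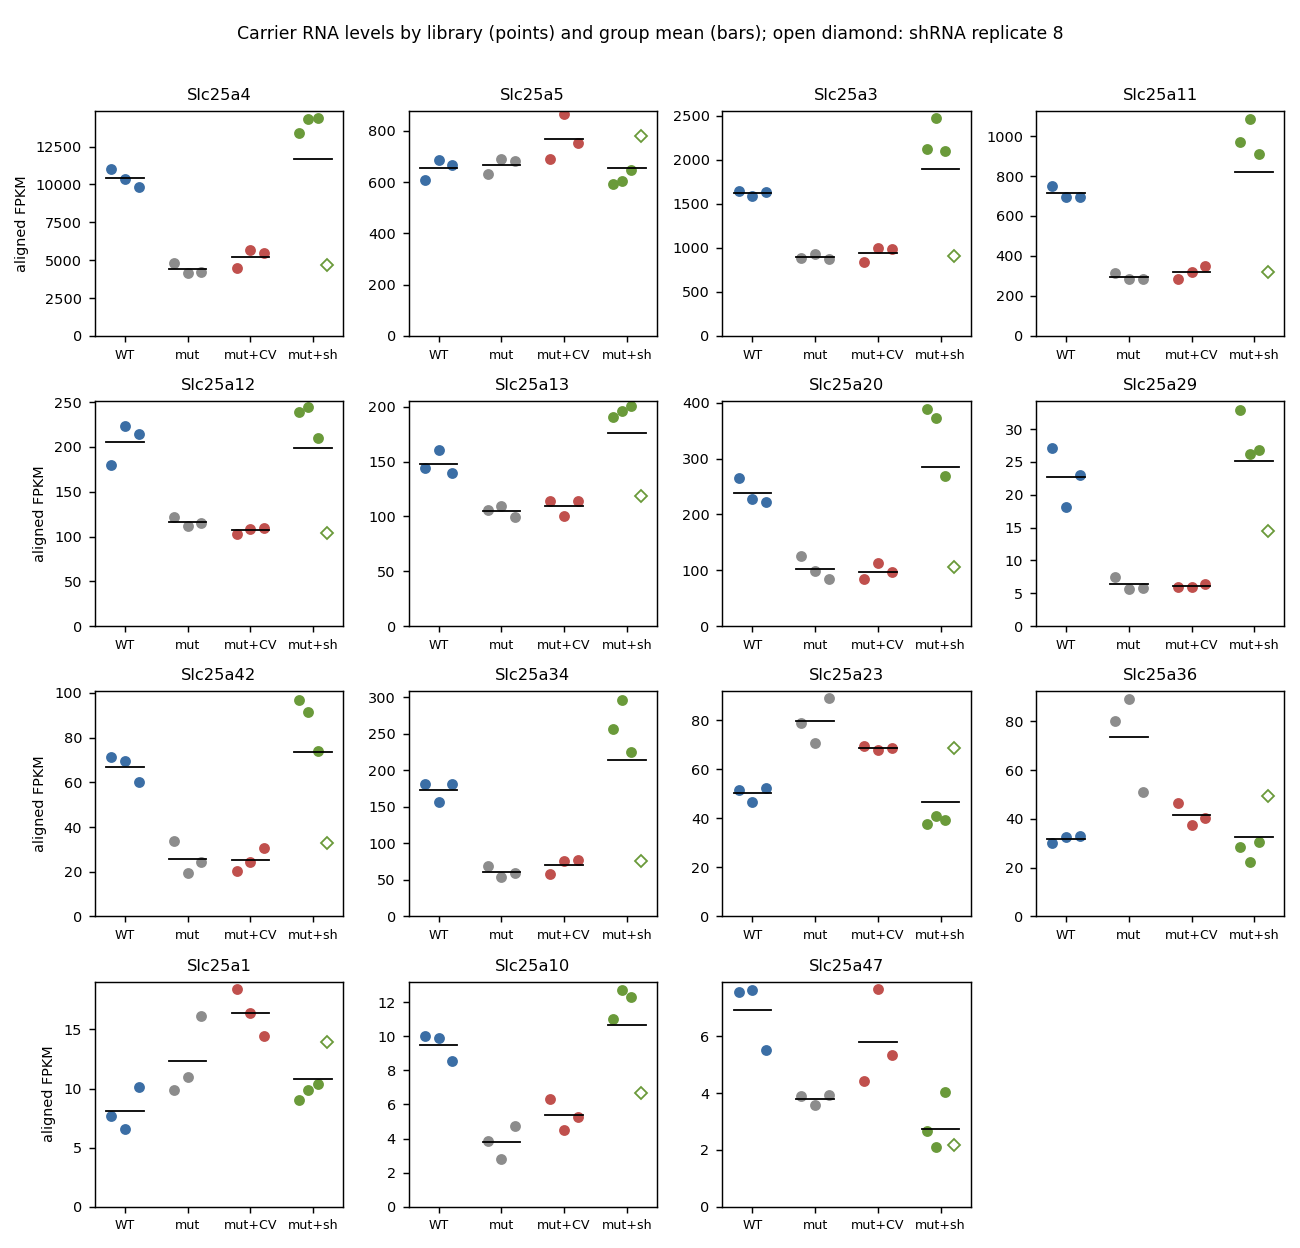
Aligned FPKM of 15 carriers in each library, on linear axes from 0. Points are libraries, the short bars are group means, and the open diamond is shRNA replicate 8; WT is wild type with control virus, mut untreated mutants, mut+CV mutants with control virus and mut+sh mutants with the shRNA label. The diamond lies with the mutants without shRNA for Slc25a4, Slc25a3, Slc25a11 and Slc25a23, and within the range of replicates 5 to 7 for Slc25a47.

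Neighbouring sets and the partner genes give the setting. Under the control virus, 9 of 45 nuclear complex I genes (Nduf symbols) were lower and 0 higher, with a median of -0.65, and 27 of 77 mitochondrial ribosomal protein genes were lower and 1 higher, with a median of -0.45, against 11.7% lower and 12.6% higher over all genes. Without shRNA replicate 8 the lower ones were 39 of 45 and 53 of 77, against 19.9% of all genes. The carrier median of -0.39 was nearer 0 than both; whether the sets differed was not tested. With the shRNA, 29 of 45 complex I genes and 34 of 77 ribosomal protein genes were higher, against 11.9% of all genes, and without replicate 8 these were 44 and 59, against 24.3%. Of 34 tested partner genes of the carriers (uncoupling proteins and other relatives, pyruvate carrier, outer membrane channels, calcium uptake, sideroflexins, carnitine and shuttle enzymes, creatine kinases), 9 were lower and 3 higher under the control virus, against the same 11.7% and 12.6%, and 18 and 7 without shRNA replicate 8, against 19.9% and 19.8%. With the shRNA 14 were higher and 3 lower, against 11.9% and 12.2%, and 23 and 4 without replicate 8, against 24.3% and 23.8%. The pyruvate carrier subunit Mpc2 averaged 841 FPKM in wild type, 399 in control-virus mutants, 1174 in shRNA replicates 5 to 7 and 409 in replicate 8.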

How the data were processed

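The 13 poly(A) libraries of mouse heart (100-nt paired reads, per the labels' protocols) were used; 11 small RNA libraries of the same study hold no carrier genes and were not used here. The deposited unit is FPKM per gene in one table. Per the submitters' processing notes, FastQC 0.11.2, STAR 2.40, Cufflinks 2.2.1, Cuffdiff and the mm9 build were used, their roles not being given. No read counts were at hand, so depth is unknown, and an FPKM of exactly 0 can be a failed estimate.

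Each library was divided by its median offset, in log2, over 13875 genes above 0 in every library. The differences were tested with limma 3.58.1 in R 4.3.3 (trend, two-sided) on log2(aligned FPKM + 1) in one model of the 4 groups, with Benjamini-Hochberg adjustment over 12980 genes of mean deposited FPKM 1 or more and a threshold of 0.05. The scripts were tested on simulated data. Ratios of paralogs were compared by exact permutation tests. The 6 comparisons share groups. Members and lists were chosen with earlier results of these data known. Values are printed for every library for a fixed set of carriers plus, per comparison, the leading passing members per direction with the smallest p; the remaining carriers are given by range. One tested carrier enters the counts and medians, but its own values are not reported here. Wild-type and control-virus mutant libraries share the numbers 2 and 3, which belong to different animals.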

Additional observations from a re-analysis of the deposited data

Results flagged for a closer look

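Among 19 carriers and 2 paralog ratios, 4 had 1 library of the 4 in the shRNA group far from the other 3, and each time it was replicate 8. Chance alone marks about 1 in 20 groups this way, and the values are not independent, since they come from the same library. Slc25a4, the main ADP/ATP carrier of heart, was 4678 FPKM in replicate 8 and 13408 to 14365 in replicates 5 to 7. Slc25a13, an aspartate/glutamate carrier, was 119 FPKM in replicate 8 against 190.2 to 200.1. Slc25a23, a calcium-regulated ATP-Mg/phosphate carrier, was 68.8 FPKM in replicate 8 against 37.9 to 41.1. The log2 ratio of Slc25a5 to Slc25a4 was -2.58 in replicate 8, just above the range of the mutants without shRNA (-2.93 to -2.60), and lower in the other libraries of the group. Why replicate 8 differs was not tested.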

How the results depend on the processing

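No carrier call changed sign in the 6 comparisons in the unaligned values or after quantile normalization of the libraries. Under the other settings, signs were followed for 19 carriers only. Among these 19, no call changed sign under any setting, and 1 carrier without a call passed with the opposite sign. This was Slc25a5, flat between the shRNA group and untreated mutants. In the unaligned values it was 0.71 higher on the log2 scale (limma, adjusted p = 0.0407). Sign changes that passed in neither fit were not counted, so the signs of uncalled carriers are not shown to be stable. Under the control virus the 13 calls against wild type became 6 without a filter on low values, 26 with the compared groups alone, 3 with Ddx3y status as a covariate and 21 with that covariate and without shRNA replicate 8. The 16 calls of shRNA against control virus became 1 with the compared groups alone, 1 with the covariate and 22 with the covariate and without shRNA replicate 8. The 19 calls of shRNA against untreated became 29 as deposited and 3 with the compared groups alone. Against wild type the shRNA group had 0 calls, and 5 with the covariate and without replicate 8. Leaving out one library gave 2 to 23 calls for control-virus mutants against wild type, 4 to 25 for untreated mutants against wild type, 1 to 27 for shRNA against control virus, 10 to 25 for shRNA against untreated, 0 to 5 for shRNA against wild type, and 0 to 0 between the untreated and control-virus mutants; apart from that last pair, the highest came without shRNA replicate 8. For the paralog ratios the smallest p allowed is 0.1 for 3 against 3 and 0.0571 for 4 against 3, so no ratio test could pass and their p-values say nothing about stability. The numbers 2 and 3 do not pair the libraries of control-virus mutants and wild type, whose same-numbered deviations correlated at -0.183 and -0.109; a replicate block gave 14 calls, 1 higher and 13 lower. The share of all genes called was computed only for the main fit and for the fit that left out shRNA replicate 8 alone. For the other settings, here and in the comparisons above, a change in the carrier count cannot be told from a change over all genes. Unknown depth limits what can be said of carriers at a few FPKM.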
